A study of Mus musculus with 12 samples.

Results

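The chains of collagens, laminins and integrins were followed in the cerebellar cortex of mice on 3 diets. Members were the protein-coding genes whose GENCODE symbol has the form of a collagen alpha chain (Col, a type number and a chain number), a laminin alpha, beta or gamma chain, or an integrin alpha or beta chain (the rule itself uses no measured value). The rule found 81 genes of the 54752 in the table of counts, 44 of them collagen, 11 laminin and 26 integrin chains. Poly(A) RNA was sequenced from 12 wild-type male mice, F1 hybrids of C57BL6J and FVB, all aged 12 weeks, with 4 mice per diet. AL mice ate without restriction, DR mice were on dietary restriction, and KD mice carry the label ketogenic diet. AL and DR mice were killed early in the dark period, the DR mice with that day's meal withheld, so that DR here is restriction together with a missed meal. The methods used here describe the feeding and killing of AL and DR mice only, and they state that those mice were picked by RNA quality. Only cortex was sampled, with lateral, intermediate and midline parts (hemisphere, paravermis and vermis) in the same piece, and the nuclei were left out.

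Collagens are triple helices of 3 alpha chains that build fibrils, decorate them or form the networks of basement membranes, and laminins are cross-shaped trimers of 1 alpha, 1 beta and 1 gamma chain that lie at the surface of a basement membrane. Integrins are receptors of 1 alpha and 1 beta chain, which bind collagens, laminins and other matrix proteins outside the cell and connect to the actin cytoskeleton through adaptor proteins inside it. In the brain, basement membranes surround blood vessels and lie under the meninges, where the end feet of Bergmann glia and other astrocytes rest on them, while fibrillar collagens are sparse in the tissue itself.

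Between 31712084 and 40798644 reads per library were counted on genes, and no difference in library totals passed a test between any pair of diets (exact permutation tests, two-sided, p = 0.6 for DR against AL, 0.8 for KD against AL and 0.257 for KD against DR, where 4 mice against 4 allow no p below 0.0286). Values are read counts scaled to library size (CPM) after TMM scaling. Chains are ranked by level only as CPM per kb of exon, while markers and sums over genes are given in plain CPM. Genes of the labelled tissue were abundant. Car8, a marker of Purkinje cells, averaged 1092 CPM and Gabra6, a marker of granule cells, 880 CPM over the 12 mice, while of 8 genes that mark the cerebellar nuclei, the forebrain or the brainstem 5 averaged below 1 CPM and the other 3 between 1.23 and 3.22 CPM.

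Col18a1 was the collagen chain with the most RNA per exon length. Its core protein is a heparan sulfate proteoglycan of basement membranes and the source of endostatin, and its level averaged 24.9 CPM per kb (range 21.3 to 28.4 over the 12 mice). The next collagens, Col9a3, Col5a1, Col9a2 and Col27a1, averaged 7.17, 6.51, 5.90 and 4.88 CPM per kb, and their ranges overlapped one another but not that of Col18a1. Lamb1 and Lamb2, the beta chains of the common laminins, were the most abundant laminin chains, at 6.45 CPM per kb (range 5.44 to 7.32) and 6.04 CPM per kb (range 5.07 to 6.55), which did not differ beyond their spread. Their partner Lamc1, the usual gamma chain, averaged 3.42 CPM per kb. Among integrins, Itga3 (16.5 CPM per kb), Itgb5 (16.2 CPM per kb) and Itga7 (16.02 CPM per kb) had overlapping ranges, and Itgb1, the beta chain shared by most collagen and laminin receptors, followed at 10.9 CPM per kb (range 10.1 to 12.0). Itga3 and Itga7 are laminin-binding alpha chains that pair with Itgb1, and Itgb5 pairs with Itgav in a receptor for vitronectin.

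**Figure D1:**
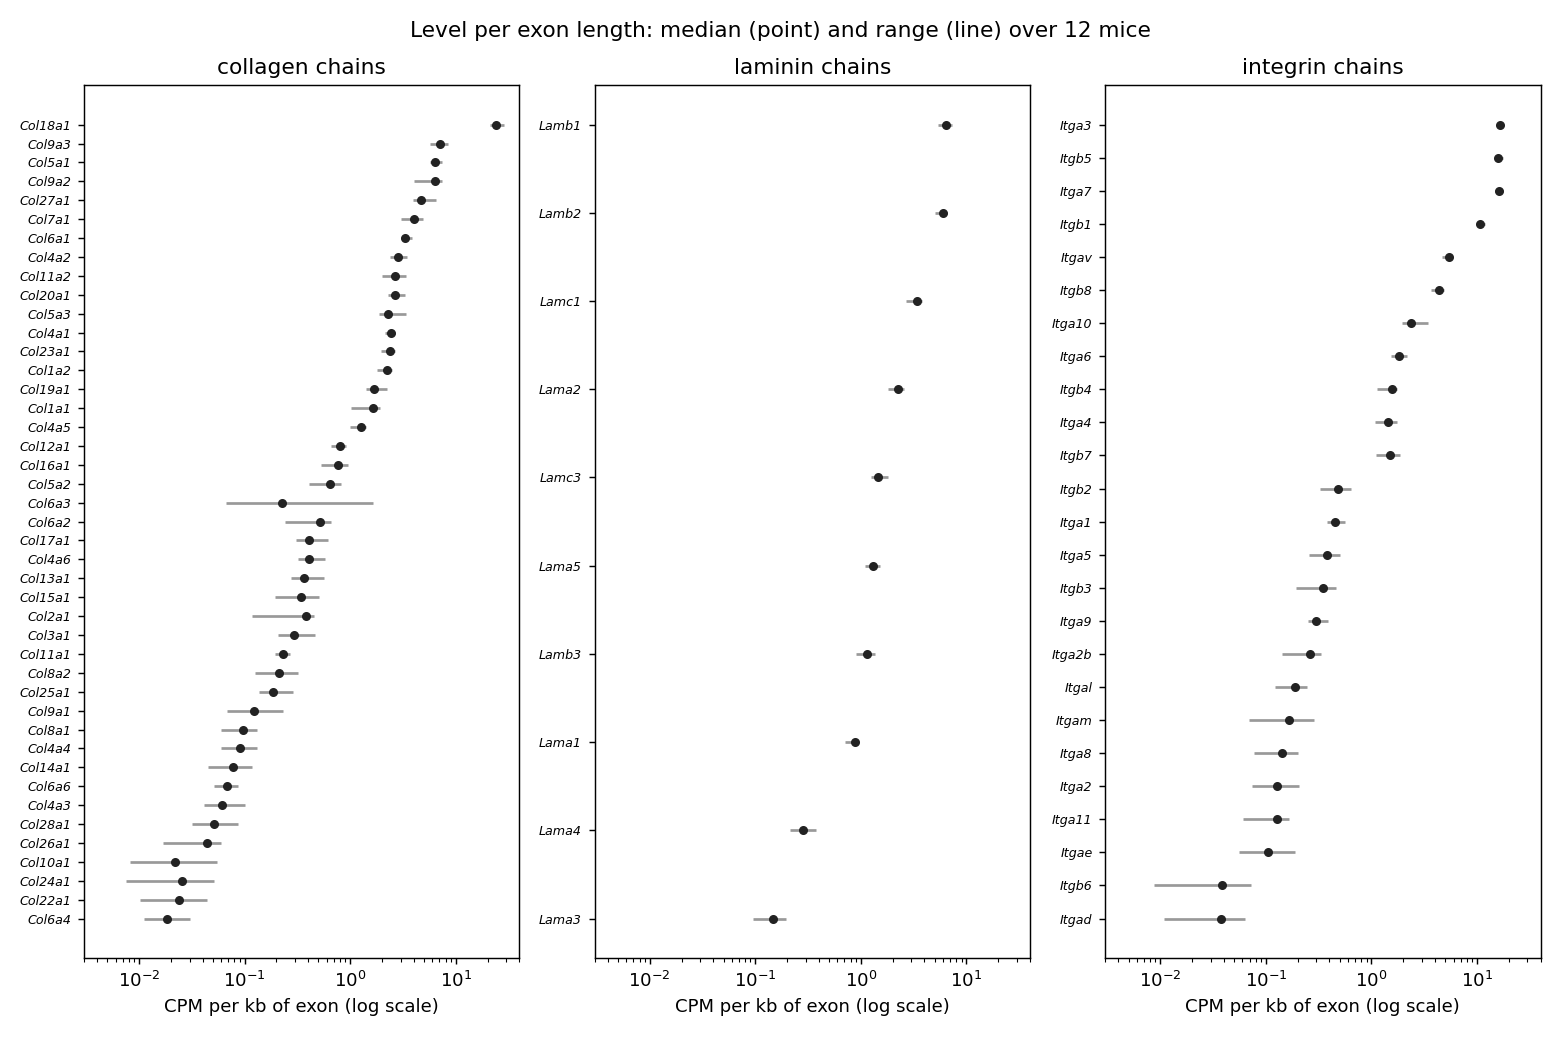
Level of the collagen, laminin and integrin chains in CPM per kb of exon (horizontal log axis), with the median over 12 mice as a point and the range as a line, in order of the mean. Col18a1 stands apart from the other collagens at 21.3 to 28.4 CPM per kb, and Col6a3 has the longest line of the collagen panel. Col6a5 and Itgax, with 0 reads in some libraries, are left out because a log axis cannot show 0, and 1 laminin chain is not drawn.

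The first question was which chains changed under DR. After the filter on low counts 74 of the 81 members were tested in DR against AL, and 8 of them (10.8%) were called, that is, passed the quasi-likelihood test of edgeR at 0.05 once p-values had been adjusted by Benjamini-Hochberg over the whole table of 19052 tested genes, of which 3.06% passed. Lower in DR mice were Col9a2, Col9a3, Col11a2, Col18a1, Itgb3, Itgb8 and Itga6 (7 members, against 1.74% of all genes), and higher was Col5a3 (1 member, against 1.32%). Calls were split over the families as 5 of 39 collagen chains, 0 of 11 laminin chains and 3 of 24 integrin chains. At an unadjusted p under 0.05 there were 22 members (29.7%), 18 lower and 4 higher, where 18.0% of all genes had such a p, 8.98% lower and 9.02% higher. With 1 library left out, between 2 and 5 members were called, the lowest count without AL mouse 2 and without DR mouse 3. In 10 members every DR mouse lay below every AL mouse, and in 0 members above, against 5.22% and 5.61% of all genes. The median log2 fold change of DR against AL was -0.09 over the 74 members, -0.03 over the collagen, -0.125 over the laminin and -0.18 over the integrin chains, beside a median of 0.0036 over all genes, and 49 of the 74 members (66.2%) had a fold change below 0, as did 49.0% of all genes. Summed over its 44 chains, collagen RNA lay between 620.6 and 666.8 CPM in AL mice, 549.1 and 599.4 CPM in DR mice and 587.7 and 657.5 CPM in KD mice, so that every DR mouse was below every AL mouse and overlapped with KD mice. A large part of these sums was Col18a1, which averaged 189 CPM in AL and 161 CPM in DR mice, beside mean sums of 637.9 and 580.3 CPM. Summed laminin RNA was 217.4 ± 8.68, 201.7 ± 13.3 and 216.1 ± 5.26 CPM in AL, DR and KD mice (SD, n = 4 each), with overlapping AL and DR mice. The integrin sums, 524.7 ± 15.1, 511.5 ± 15.9 and 518.7 ± 8.37 CPM (SD, n = 4 each), overlapped as well. In whole tissue, fewer cells of a type and less RNA per cell cannot be told apart.

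**Figure D2:**
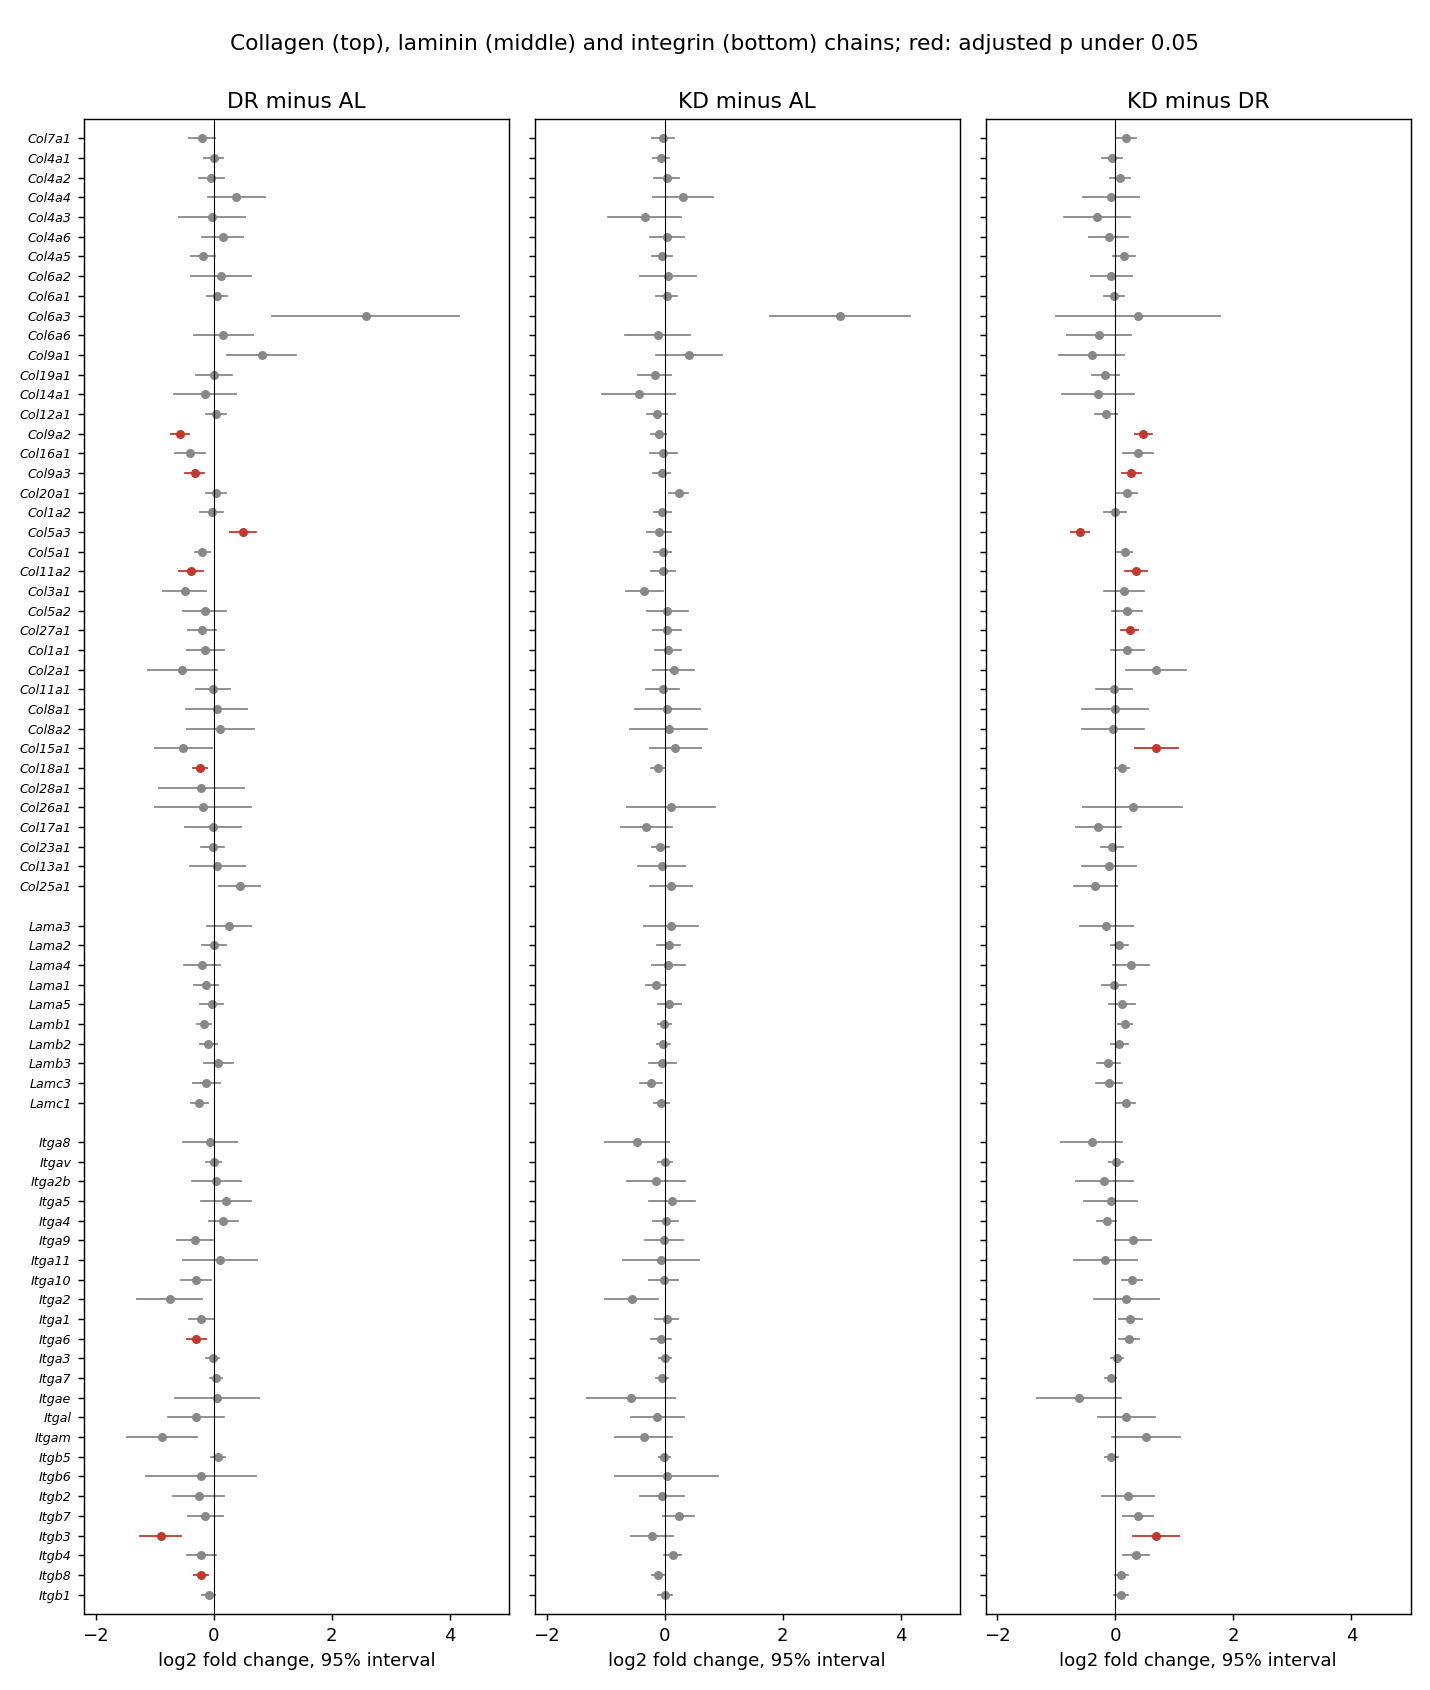
Log2 fold change (points, horizontal axis) with its 95% interval (lines) for the members tested in DR against AL, KD against AL and KD against DR except 1 laminin chain, none of whose tests passed, collagens above, laminins in the middle and integrins below. Red marks the called members: 8 members in the left panel, 0 in the middle and 7 on the right.

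The second question was whether KD mice resembled AL or DR mice in these chains. In KD against DR, 7 of 72 tested members (9.72%) were called, against 4.94% of 19087 genes: Col9a2, Col9a3, Col11a2, Col27a1, Col15a1 and Itgb3 were higher in KD mice (6 members, against 2.43% of all genes) and Col5a3 was lower (1 member, against 2.51%). With 1 library left out, the number of called members lay between 2 (without KD mouse 3) and 6 (without DR mouse 4). Both comparisons with called members share the 4 DR mice, so a chain that was low in these mice enters both. At an unadjusted p under 0.05, 18 members were higher in KD than in DR mice (against 9.29% of all genes) and 1 lower (9.39%). In 8 members every KD mouse lay above every DR mouse (5.86%) and in 1 below (5.85%), and 32 of the 72 had a fold change below 0, as did 50.8% of all genes. In KD against AL, 0 of 73 tested members were called by edgeR's quasi-likelihood test and 0 by DESeq2, and 6 of them had an unadjusted p under 0.05 (8.22%, against 4.87% of 19036 genes, of which 0 were called). Of these, 2 were higher in KD mice (Col6a3 and Col20a1, against 2.39% of all genes) and 4 lower (Col3a1, Lamc3, Itga2 and Itgb8, against 2.48%). The median log2 fold change of KD against AL over the 73 members was -0.03. The groups of KD and AL mice did not overlap for Col20a1, a fibril-associated collagen (log2 fold change 0.24, adjusted p = 0.981 by edgeR), for Itgb4, the integrin chain of hemidesmosomes (0.14, 0.994), or for Lama1, a laminin alpha chain of the pial basement membrane (-0.15, 0.994). That makes 2 members higher and 1 lower of 73, where 2.98% of all genes did not overlap, 1.57% higher and 1.41% lower.

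Col9a2 fell the most clearly under DR. It encodes the alpha2 chain of type IX collagen, which sits on the surface of cartilage fibrils as a trimer of the products of Col9a1, Col9a2 and Col9a3, and the gene (ENSMUSG00000028626.5) lies on the plus strand at chr4:121039385-121055322 of GRCm38. Its level was 20.5, 22.8, 19.98 and 20.8 CPM in the AL mice, 14.4, 12.4, 14.6 and 15.1 CPM in the DR mice and 20.5, 19.1, 19.2 and 19.7 CPM in the KD mice. Every DR mouse was below every AL and every KD mouse, while AL and KD mice overlapped. Mean CPM fell by 32.8% from AL to DR, a log2 fold change of -0.58 (SE 0.07, adjusted p = 0.001 by edgeR), and KD against DR gave 0.47 (SE 0.07, adjusted p = 0.001). The fold change of KD against AL was -0.10, with a 95% interval from -0.23 to 0.02. Each of the 8 fits that left out 1 library kept the call in DR against AL, and so did each of the 8 in KD against DR.

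Col9a3 (ENSMUSG00000027570.15, plus strand, chr2:180597790-180622189), the alpha3 chain of the same trimer, had 30.7, 29.7, 32.0 and 27.4 CPM in AL mice, 27.3, 22.1, 22.1 and 24.3 CPM in DR mice and 28.9, 32.2, 27.6 and 27.2 CPM in KD mice. DR mouse 1 lay just under the lowest AL mouse and inside the range of the KD mice, and the other DR mice were below all AL and KD mice. The log2 fold change was -0.33 in DR against AL (SE 0.07, adjusted p = 0.0271 by edgeR) and 0.27 in KD against DR (SE 0.08, adjusted p = 0.0477), calls that held in 3 (without AL mouse 3, AL mouse 4 or DR mouse 1) and 1 (without DR mouse 1) of the 8 fits with 1 library left out. Col9a1, the third chain, averaged 0.144 CPM per kb against 5.90 and 7.17 CPM per kb for Col9a2 and Col9a3, with 0.346 to 0.619 CPM in AL, 0.580 to 1.18 CPM in DR and 0.568 to 0.885 CPM in KD mice. Its fold change of DR against AL was 0.81 (95% interval 0.23 to 1.40, adjusted p = 0.131), so the interval lay on the other side of 0 from those of its partners without passing the test.

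Of the 5 members that passed in both comparisons (Col9a2, Col9a3, Col11a2, Col5a3 and Itgb3), 3 have a promoter in RefSeq's table for GRCm38.p6, and their windows from 250 bases before to 50 after the start are shown because these genes moved with diet, Col9a2 and Col11a2 downward and Col5a3 upward in DR mice. Capitals mark a GC box (GGGCGG, or CCGCCC on the other strand) or a TATA box (TATAAA, or TTTATA on the other strand), and no printed match overlaps another.
Col9a2, chr4:121039316-121039615, plus strand: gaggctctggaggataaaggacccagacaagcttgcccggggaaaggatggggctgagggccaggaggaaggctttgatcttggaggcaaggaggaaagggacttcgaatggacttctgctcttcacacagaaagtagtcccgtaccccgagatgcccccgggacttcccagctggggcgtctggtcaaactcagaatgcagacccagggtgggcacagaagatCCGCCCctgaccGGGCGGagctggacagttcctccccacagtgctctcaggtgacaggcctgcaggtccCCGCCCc
Col11a2, chr17:34038888-34039187, plus strand: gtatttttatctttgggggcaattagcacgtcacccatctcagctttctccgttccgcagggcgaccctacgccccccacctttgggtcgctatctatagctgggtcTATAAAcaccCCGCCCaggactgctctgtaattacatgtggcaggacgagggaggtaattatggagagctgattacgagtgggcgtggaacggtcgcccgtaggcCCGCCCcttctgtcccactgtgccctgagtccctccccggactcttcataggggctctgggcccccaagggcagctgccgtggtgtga
Col5a3, chr9:20815018-20815317, minus strand: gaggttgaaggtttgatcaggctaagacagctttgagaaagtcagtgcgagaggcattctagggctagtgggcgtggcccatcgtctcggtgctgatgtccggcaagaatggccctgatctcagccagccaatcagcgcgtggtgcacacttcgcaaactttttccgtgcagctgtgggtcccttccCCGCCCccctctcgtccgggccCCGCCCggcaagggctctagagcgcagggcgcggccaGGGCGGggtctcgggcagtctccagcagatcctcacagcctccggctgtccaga
Col9a2 and Col5a3 each have 3 GC boxes and no TATA box in this window, and Col11a2 has 2 GC boxes and 1 TATA box. A relation between these motifs and the direction of change was not tested. RefSeq starts need not be those of GENCODE, and the Col11a2 window ends before the first base of the GENCODE gene. A GC box stood in 54.7% of the 64 promoter windows of 58 members, against 35.7% of all 32851 windows, and the median GC content was 59.2% against 52.7%. The core of the SOX motif (ACAAT, or ATTGT on the other strand), searched because SOX9 drives collagen genes in cartilage, stood in 12.5% of the member windows and 31.02% of all windows, and it is in none of the 3 printed here. A TATA box stood in 7.81% of the member windows and 13.6% of all windows. The SOX core and the TATA box are mostly A and T, and no share was adjusted for the GC content of the windows. A match of letters is a description and not a binding site.

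Among the fibrillar collagens, 9 of the 10 tested chains had a fold change below 0 in DR against AL, with a median of -0.17, and Col11a2 and Col5a3 passed the test in opposite directions. Col11a2 (ENSMUSG00000024330.16, plus strand, chr17:34039437-34066685), a chain of type XI collagen that nucleates thin fibrils, had 17.8, 18.7, 23.0 and 21.6 CPM in AL mice, 17.4, 13.5, 15.9 and 15.3 CPM in DR mice and 19.6, 22.8, 20.02 and 17.2 CPM in KD mice. All DR mice were below all AL mice, but DR mouse 1 and KD mouse 4 crossed. Its fold change on the log2 scale was -0.38 in DR against AL (SE 0.09, adjusted p = 0.0393 by edgeR) and 0.35 in KD against DR (SE 0.09, adjusted p = 0.0318), and each call held in 2 of 8 fits with 1 library left out, the first without AL mouse 1 or DR mouse 1 and the other without DR mouse 1 or KD mouse 4.

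Col5a3 was the exception that rose. It encodes the alpha3 chain of type V collagen, a minor partner of type I fibrils, and lies on the minus strand at chr9:20770050-20815067 (ENSMUSG00000004098.7). AL mice had 18.5, 12.8, 16.1 and 13.7 CPM, DR mice 23.1, 18.2, 22.7 and 22.4 CPM, and KD mice 14.2, 14.1, 14.3 and 14.6 CPM. KD mice were tightly grouped and all below the DR mice, whereas AL mouse 1 lay just above DR mouse 2. Mean CPM was 41.3% higher in DR than in AL mice, with a log2 fold change of 0.49 (SE 0.11, adjusted p = 0.0223 by edgeR) that held in 3 of 8 fits with 1 library left out (AL mouse 1, AL mouse 3 or DR mouse 2). The difference from KD mice was larger against its error, at -0.60 in KD against DR (SE 0.07, adjusted p = 0.000314), and held in all 8. Col5a1 and Col5a2, the other chains of type V collagen, were not called in DR against AL, at -0.19 (adjusted p = 0.098 by edgeR) for the former and -0.15 (adjusted p = 0.694) for the latter. Without AL mouse 4, and also without a filter, Col5a1 was called in this comparison.

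Col27a1 (plus strand, chr4:63214004-63334991), the chain of type XXVII collagen, was called only in KD against DR, where its log2 fold change was 0.24 (SE 0.07, adjusted p = 0.0433 by edgeR), a call that held in 2 of 8 fits with 1 library left out (DR mouse 3 or KD mouse 4). DR mice had 51.8, 58.2, 60.9 and 58.1 CPM, KD mice 71.9, 73.6, 65.5 and 59.8 CPM and AL mice 51.2, 66.3, 83.9 and 60.8 CPM. KD mouse 4 fell inside the range of the DR mice, and the AL mice spread over the ranges of both other diets, with a fold change of -0.20 in DR against AL (adjusted p = 0.362). The remaining fibrillar chains, Col1a1, Col1a2, Col2a1, Col3a1 and Col11a1, were not called. Col1a1 and Col1a2, the chains of type I collagen, had fold changes of -0.14 (95% interval -0.46 to 0.17) and -0.04 (-0.23 to 0.15) in DR against AL. Those of Col2a1, Col3a1 and Col11a1 were -0.53 (-1.12 to 0.06), -0.50 (-0.86 to -0.13) and -0.01 (-0.31 to 0.28).

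Of the multiplexins, collagens of the basement membrane zone with interrupted helices, Col18a1 was lower in DR than in AL mice. It lies on the minus strand at chr10:77052178-77166548 (ENSMUSG00000001435.15), and its level was 199, 186, 198 and 173 CPM in AL mice, 169, 150, 160 and 166 CPM in DR mice and 169, 194, 170 and 166 CPM in KD mice. The DR mice lay below the AL mice without overlap, and 3 of the 4 KD mice fell in or next to the range of the DR mice. Its log2 fold change was -0.23 in DR against AL (SE 0.05, adjusted p = 0.0292 by edgeR), held in 2 of 8 fits with 1 library left out (AL mouse 4 or DR mouse 1). KD against AL gave -0.12 (95% interval -0.24 to 0.00) and KD against DR 0.11 (-0.00 to 0.23), so the KD mice were not separated from either diet. The mean of Col18a1 was 189 ± 12.3 CPM in AL and 161 ± 8.69 CPM in DR mice (SD, n = 4 each).

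Col15a1 (plus strand, chr4:47208161-47313167), the other multiplexin, was scarce, with 2.17, 1.44, 2.51 and 3.21 CPM in AL mice, 1.53, 1.24, 1.73 and 1.99 CPM in DR mice and 2.47, 2.13, 3.09 and 2.84 CPM in KD mice. All KD mice were above all DR mice, and AL mice overlapped with both. The log2 fold change of KD against DR was 0.70 (SE 0.17, adjusted p = 0.029 by edgeR, held without DR mouse 4 or KD mouse 2 but in none of the other 6 fits with 1 library left out), and that of DR against AL was -0.51 (SE 0.22, adjusted p = 0.241).

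**Figure D3:**
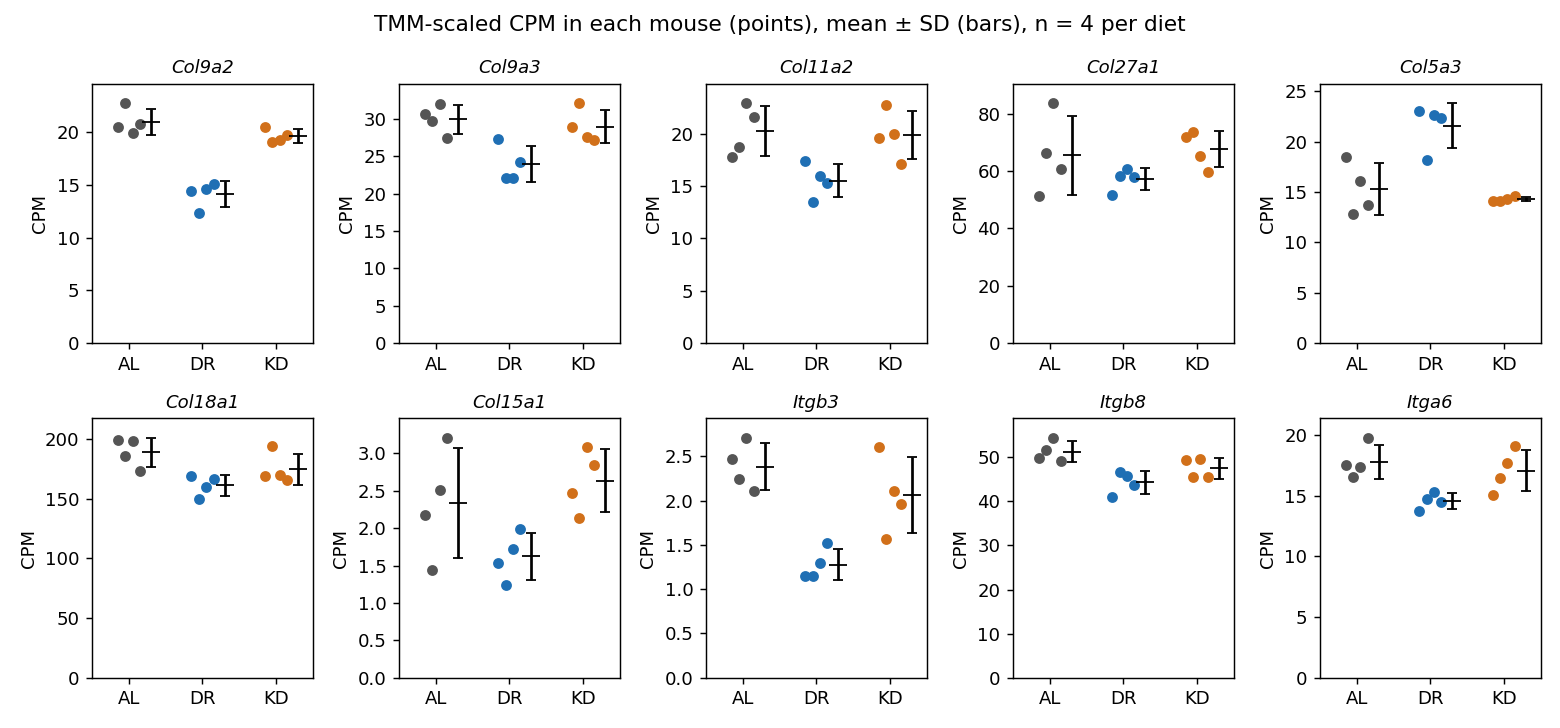
CPM after TMM scaling (vertical axes, starting at 0) of the 10 members called in at least 1 comparison, with a point per mouse and mean ± SD as bars (n = 4 per diet). For Col9a2 the 4 DR mice sit between 12.4 and 15.1 CPM, below all other mice, while for Col5a3 they sit between 18.2 and 23.1 CPM.

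The chains of the basement membrane network itself did not pass the test. Type IV collagen is the sheet-forming collagen of every basement membrane, and 0 of its 6 chains were called in any comparison. Col4a1 had 18.7, 17.6, 18.7 and 18.3 CPM in AL mice, 16.7, 16.6, 19.99 and 19.99 CPM in DR mice and 16.1, 16.8, 19.1 and 18.2 CPM in KD mice, with a log2 fold change of DR against AL whose 95% interval ran from -0.16 to 0.16. Col4a2, encoded head to head with Col4a1 and joined to it in the common trimer, gave -0.04 (-0.26 to 0.17). The less abundant Col4a3, Col4a4, Col4a5 and Col4a6 had fold changes between -0.19 and 0.38 in DR against AL.

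Type VI collagen forms beaded filaments from the products of Col6a1, Col6a2 and Col6a3, and Col6a3 was singled out here after its values were seen, because its log2 CPM varied more over the 12 mice than that of any other member. It had 0.962, 0.800, 0.885 and 2.87 CPM in AL mice, 17.7, 1.06, 12.1 and 1.02 CPM in DR mice and 19.6, 2.53, 14.99 and 4.96 CPM in KD mice. Mice 1 and 3 of DR and mice 1 and 3 of KD were high, the other DR mice were at the level of most AL mice, and KD mice 2 and 4 lay between. The highest library was 24.6-fold above the lowest, and the SD of log2(CPM + 0.1) over the 12 mice, 1.79, ranked 5 among 15476 genes that averaged 1 CPM or more, whose median SD was 0.113. The log2 fold change was 2.58 in DR against AL (SE 0.74, adjusted p = 0.0772 by edgeR) and 2.98 in KD against AL (SE 0.56, adjusted p = 0.224). Neither passed, although both passed with edgeR's likelihood-ratio test and without a filter, and DR against AL also without DR mouse 2 or DR mouse 4. Its partners did not show this spread: Col6a1 ranged from 13.1 to 16.7 CPM over all 12 mice and Col6a2 from 1.998 to 5.45 CPM, with Col6a1 at 14.03, 16.2, 15.6 and 14.7 CPM in the DR mice. The markers of meningeal fibroblasts summed to 73.2, 102, 106 and 99.2 CPM in the DR mice and 106, 97.2, 86.0 and 88.4 CPM in the KD mice. Of the 4 mice high in Col6a3, DR mouse 3 and KD mouse 1 thus had the highest sums of the 12 mice and DR mouse 1 the lowest. The part of the meninges in these values was not tested.

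**Figure D4:**
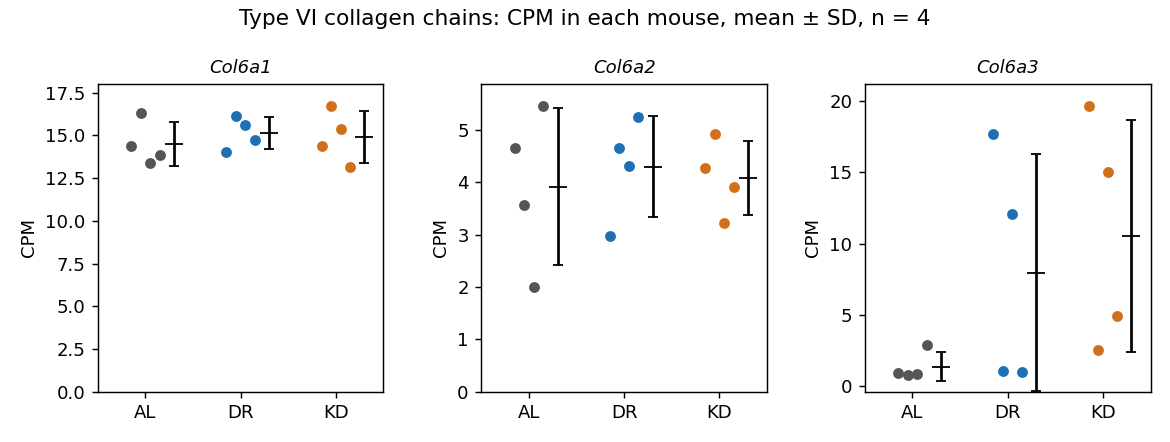
CPM after TMM scaling (vertical axes) of the 3 chains of the common type VI collagen trimer, a point per mouse with mean ± SD as bars (n = 4 per diet). Col6a1 and Col6a2 overlap between diets, and in Col6a3 the DR and KD diets each hold mice at 1.02 to 4.96 CPM and mice at 12.1 to 19.6 CPM, and the SD bar of the DR mice reaches below 0.

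The remaining collagens showed fewer differences. Col16a1, a fibril-associated collagen, had 5.18 to 6.39 CPM in AL mice, 3.55 to 4.88 CPM in DR mice and 4.95 to 6.19 CPM in KD mice, so that the DR mice overlapped with neither other diet, but its log2 fold changes of -0.40 in DR against AL (adjusted p = 0.0883 by edgeR) and 0.38 in KD against DR (adjusted p = 0.0876) missed the threshold. DESeq2, edgeR's likelihood-ratio test and the fit without a filter did call it in DR against AL, and the fit without a filter in KD against DR. Of the transmembrane collagens Col13a1, Col17a1, Col23a1 and Col25a1, 0 were called, with fold changes from -0.02 to 0.44 in DR against AL. Col12a1, Col14a1, Col19a1 and Col20a1, the other tested fibril-associated chains, were not called, nor were Col7a1 of anchoring fibrils, the short chains Col8a1 and Col8a2, Col6a6, Col26a1 or Col28a1. There were 5 collagens (Col6a4, Col6a5, Col10a1, Col22a1 and Col24a1) and 2 leukocyte integrin chains (Itgad and Itgax) with too few reads to be tested in any comparison, at most 15 reads in a library. Col6a5 had 0 reads in all AL libraries, where 3 reads correspond to 0.0735 to 0.0946 CPM, and 8 reads in all 12. Col28a1 was tested only in DR against AL.

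Of the laminin chains 0 of 11 were called in any comparison by edgeR's quasi-likelihood test on the libraries compared. Lamc1 was called in DR against AL by DESeq2, by edgeR's likelihood-ratio test, without a filter and in a joint fit of all 12 libraries. At an unadjusted p under 0.05, 2 of the 11 (18.2%) were lower in DR than in AL mice, Lamb1 and Lamc1, and 0 were higher. Over all genes 18.0% had such a p, 8.98% lower and 9.02% higher. Lamc1, which joins the alpha and beta chains of most laminin trimers, had 29.3, 29.6, 30.6 and 31.3 CPM in AL mice, 22.2, 26.3, 27.0 and 26.6 CPM in DR mice and 31.1, 27.3, 30.9 and 26.9 CPM in KD mice. The DR mice were below all AL mice, and the KD mice reached into the range of the DR mice. Its log2 fold change was -0.25 in DR against AL (SE 0.07, adjusted p = 0.0586 by edgeR). Lamb1 had 70.1, 64.4, 63.0 and 67.7 CPM in AL mice, 59.0, 53.9, 60.5 and 63.5 CPM in DR mice and 64.5, 64.0, 72.6 and 64.3 CPM in KD mice, with 1 DR mouse inside the AL range and none inside the KD range. Its fold change was -0.17 in DR against AL (adjusted p = 0.118) and 0.16 in KD against DR (adjusted p = 0.111). Lamb2, the beta chain of vascular and synaptic laminins, gave -0.09 (95% interval -0.23 to 0.05). The alpha chains set the trimer's receptor binding, and Lama2, the most abundant of them per kb, had a fold change of 0.00 (95% interval -0.20 to 0.21), with those of Lama1, Lama3, Lama4 and Lama5 between -0.20 and 0.26. Lamb3 of epithelial laminin gave 0.07, and Lamc3, which is found in neural tissue, -0.12 in DR against AL and -0.23 in KD against AL (adjusted p = 0.981).

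Among the tested integrin chains Itgb3 had the largest fold change in DR against AL, at -0.90 (SE 0.16) beside -0.88 (SE 0.28) for Itgam. The product of Itgb3 pairs with those of Itgav and Itga2b and binds vitronectin and fibrinogen through their RGD sequence. The Itgb3 gene (ENSMUSG00000020689.4) lies on the plus strand at chr11:104608000-104670476. The level was 2.47, 2.24, 2.71 and 2.11 CPM in AL mice, 1.15, 1.15, 1.29 and 1.52 CPM in DR mice and 2.60, 1.56, 2.11 and 1.96 CPM in KD mice. Every DR mouse was below every other mouse, with KD mouse 2 only just above DR mouse 4. Mean CPM fell by 46.4% from AL to DR, a log2 fold change of -0.90 (SE 0.16, adjusted p = 0.00942 by edgeR) that each of the 8 fits with 1 library left out kept. KD against DR gave 0.69 (SE 0.19, adjusted p = 0.0433), held without DR mouse 4 or KD mouse 2 only. Its alpha partners were not called. Itgav, at 49.9 to 59.7 CPM over the 12 mice, had a fold change of -0.00 in DR against AL (95% interval -0.13 to 0.13), and Itga2b 0.05 (-0.37 to 0.46).

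Itgb8 (ENSMUSG00000025321.14, minus strand, chr12:119158022-119238802), whose product pairs with that of Itgav and releases TGF-beta from its latent complex, had 49.9, 51.5, 54.5 and 49.1 CPM in AL mice, 40.9, 46.6, 45.8 and 43.8 CPM in DR mice and 49.4, 45.4, 49.7 and 45.4 CPM in KD mice. The DR mice were below all AL mice, and 2 KD mice stood in their range. The log2 fold change was -0.22 in DR against AL (SE 0.05, adjusted p = 0.0453 by edgeR, held in 1 of 8 fits with 1 library left out, DR mouse 2), and that of KD against AL was -0.11 (95% interval -0.22 to -0.01, adjusted p = 0.994). Itgb5, the other abundant partner of Itgav, had a fold change of 0.07 in DR against AL (-0.06 to 0.19).

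Itga6 was the only laminin-binding alpha chain called. It pairs with Itgb1 or Itgb4 and lies on the plus strand at chr2:71745616-71858416 (ENSMUSG00000027111.15). AL mice had 17.5, 16.5, 17.3 and 19.8 CPM, DR mice 13.7, 14.8, 15.3 and 14.4 CPM, and KD mice 15.1, 16.5, 17.6 and 19.1 CPM. The DR mice lay below the AL mice without overlap, and KD mouse 1 fell among the DR mice. Its log2 fold change was -0.29 in DR against AL (SE 0.07, adjusted p = 0.0425 by edgeR, held in 1 of 8 fits with 1 library left out, AL mouse 3) and 0.23 in KD against DR (SE 0.08, adjusted p = 0.0996). Itga3, the integrin chain with the highest mean level per kb, had 95.4, 91.2, 101 and 90.7 CPM in AL mice, 89.5, 88.2, 97.0 and 98.9 CPM in DR mice and 94.1, 100.4, 91.9 and 94.2 CPM in KD mice, which overlapped between all diets. Itga3 and Itga7, which bind laminin as well, gave fold changes of -0.02 (95% interval -0.13 to 0.09) and 0.04 (-0.07 to 0.15) in DR against AL.

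Itgb1 itself, at 46.6, 43.9, 42.2 and 48.7 CPM in AL mice, 42.1, 41.1, 45.1 and 42.7 CPM in DR mice and 48.2, 43.5, 49.2 and 42.0 CPM in KD mice, overlapped between all diets, with a fold change of -0.09 in DR against AL (95% interval -0.21 to 0.03). Of the collagen-binding alpha chains Itga1, Itga2, Itga10 and Itga11, 0 were called. Their fold changes in DR against AL were -0.22 (95% interval -0.42 to -0.01), -0.75 (-1.30 to -0.20), -0.30 (-0.55 to -0.05) and 0.11 (-0.52 to 0.73). Itga1, Itga10 and Itgb7, a beta chain of lymphocytes, had every KD mouse above every DR mouse, with adjusted p of 0.144, 0.0513 and 0.0842 by edgeR, and Col16a1, Lamb1, Col9a2, Col15a1 and Itgb3 were the other members without overlap in this direction. Exons of Itga10 overlap those of Gm42957 over 33.5% of their length, and those of Itgam and Gm49368 over 68.7%, and since the sources used here do not state whether counting used strand, both genes are uncertain. Itgam, an alpha chain of microglia and other myeloid cells, had a fold change of -0.88 in DR against AL (adjusted p = 0.104 by edgeR's quasi-likelihood test), and was called by the likelihood-ratio test and without a filter. Itga10 was called in KD against DR by DESeq2, by the likelihood-ratio test, with DESeq2's size factors and without a filter, and in DR against AL without a filter. Itgb4 was called in KD against DR by DESeq2, by the likelihood-ratio test and without a filter. The other chains of leukocyte receptors that could be tested (Itgae, Itgal and Itgb2) and the chains Itga4, Itga5, Itga8, Itga9 and Itgb6 were not called.

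The genes that make, join and read these chains were described from 6 lists, whose counts stand beside 3.06% of all genes called in DR against AL (1.74% lower and 1.32% higher) and 4.94% in KD against DR (2.43% higher and 2.51% lower). Of 30 tested genes for collagen folding, processing and cross-linking, 3 (10%) were lower in DR than in AL mice and 0 higher, and in KD against DR 3 (10%) were higher and 0 lower. Serpinh1, the collagen-specific chaperone HSP47, had 32.2, 27.4, 22.7 and 33.3 CPM in AL mice, 20.1, 18.8, 16.6 and 19.0 CPM in DR mice and 27.9, 27.5, 28.2 and 24.6 CPM in KD mice. All DR mice were below all others, with log2 fold changes of -0.64 in DR against AL (SE 0.10, adjusted p = 0.00466 by edgeR) and 0.54 in KD against DR (SE 0.07, adjusted p = 0.000405). P4ha1, a catalytic subunit of the prolyl 4-hydroxylase that stabilises the triple helix, gave -0.42 (adjusted p = 0.0107) and 0.42 (adjusted p = 0.000391), and its relative P4ha2 gave -0.38 (adjusted p = 0.016) and 0.22 (adjusted p = 0.171). Plod1, a lysyl hydroxylase, was called in KD against DR alone (0.28, adjusted p = 0.0269). The median over the list was -0.04 in DR against AL.

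Of 15 other basement membrane genes, 1 (6.67%) was called in each of those comparisons, Nid1, which links the laminin to the type IV collagen network. Its level was 28.2, 26.7, 28.6 and 29.9 CPM in AL mice, 17.6, 18.6, 20.1 and 22.3 CPM in DR mice and 28.1, 28.7, 26.8 and 25.0 CPM in KD mice. The DR mice were apart from both other diets, with log2 fold changes of -0.53 in DR against AL (SE 0.07, adjusted p = 0.00143 by edgeR) and 0.47 in KD against DR (SE 0.07, adjusted p = 0.0016). Among 23 tested genes for other integrin ligands, Tnc and Mfge8 were lower and Fbln5 higher in DR than in AL mice. Tnc, the glial matrix protein tenascin C, had 27.5 to 36.1 CPM in AL mice, 11.1 to 16.3 CPM in DR mice and 26.2 to 32.5 CPM in KD mice, a log2 fold change of -1.20 in DR against AL (SE 0.11, adjusted p = 5.95e-05). Mfge8, a bridge between phosphatidylserine and the integrins of Itgav, had 48.3 to 53.1, 35.0 to 42.6 and 47.4 to 52.1 CPM and a fold change of -0.45 (SE 0.06, adjusted p = 0.00143). Fbln5, a fibulin of elastic fibres with an RGD sequence, went the other way, from 5.05 to 7.55 CPM in AL to 14.4 to 19.0 CPM in DR mice, with 5.72 to 8.68 CPM in KD mice (DR against AL 1.31, SE 0.12, adjusted p = 5.95e-05). KD against DR called these 3 genes in the opposite direction, and Tnr, Icam2 and Edil3 as higher in KD mice (fold changes 0.32, 0.60 and 0.19).

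Inside the cell, 1 of 33 tested integrin adaptors and signalling genes was called in DR against AL, a share (3.03%) at the 3.06% of all genes. Ptk2b, a relative of focal adhesion kinase, had 1.63 to 2.28 CPM in AL mice, 3.60 to 4.45 CPM in DR mice and 1.12 to 2.33 CPM in KD mice, with log2 fold changes of 1.10 in DR against AL (SE 0.14, adjusted p = 0.001 by edgeR) and -1.13 in KD against DR (SE 0.17, adjusted p = 0.00134). Parva, which ties integrin-linked kinase to actin, was called as higher in KD than in DR mice (0.18, adjusted p = 0.0322). Of 16 tested non-integrin receptors for collagen and laminin 0 were called in DR against AL, and in KD against DR Mag was higher (0.24, adjusted p = 0.0211) and Sdc4 lower (-0.23, adjusted p = 0.0279). Of 15 matrix proteases and inhibitors, Adamts1, a protease of proteoglycans, was lower in DR than in AL mice (-0.47, adjusted p = 0.0223) and higher in KD than in DR mice (0.58, adjusted p = 0.000738), and Adamts4 was higher in KD than in DR mice (0.28, adjusted p = 0.0209). In KD against AL 0 genes of the 6 lists were called, as for all genes.

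**Figure D5:**
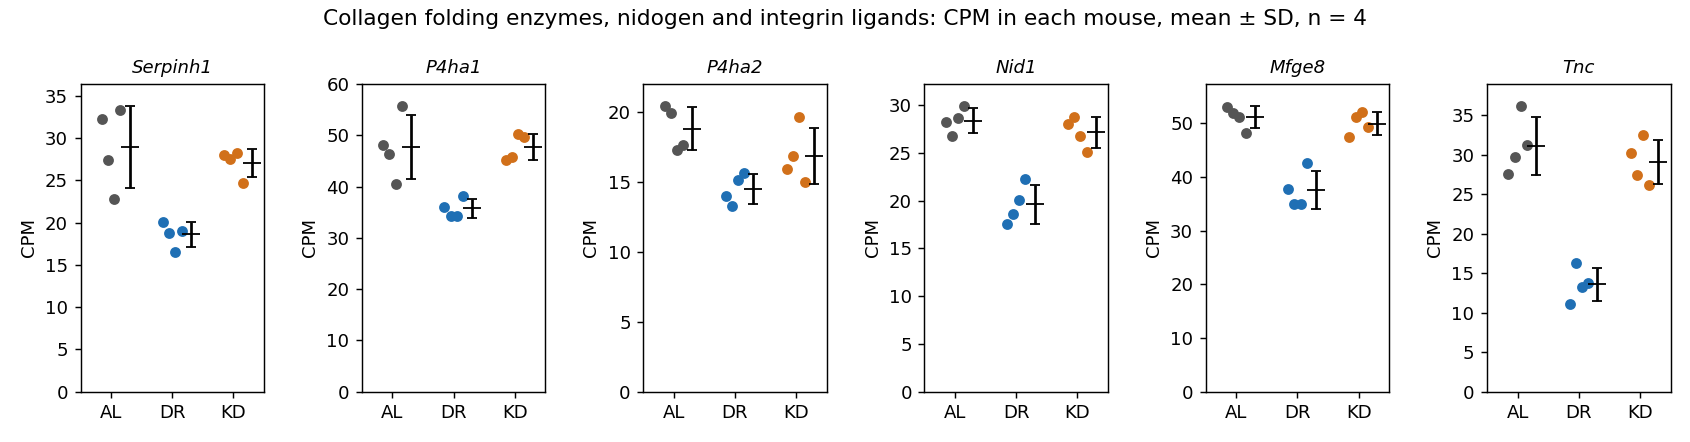
CPM after TMM scaling (vertical axes, starting at 0) of 3 collagen folding genes, Nid1, Mfge8 and Tnc, a point per mouse with mean ± SD as bars (n = 4 per diet). In Serpinh1 the DR mice lie between 16.6 and 20.1 CPM and in Tnc between 11.1 and 16.3 CPM, below all AL and KD mice.

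Markers of several cell types were called as well, beside 3.06% of all genes in DR against AL (1.74% lower) and 4.94% in KD against DR (2.43% higher). The 10 markers of Bergmann glia and astrocytes summed to 2175, 2208, 2054 and 2044 CPM in AL mice, 1961, 1869, 1851 and 1958 CPM in DR mice and 2086, 2003, 2066 and 2120 CPM in KD mice, with Slc1a3 the most abundant per kb and Hes5 alone below 1 CPM. Slc1a3 alone averaged 1264 CPM over the 12 mice, a large part of these sums. Of the 10, 2 were lower in DR than in AL mice, Aqp4 (-0.52) and Hopx (-0.47), and the other 8 were not called. Fold changes of DR against AL were below 0 in 7 of the 10 and above 0 in 3, up to 0.60, with a median of -0.09. Microglia markers (10 genes, Aif1 alone below 1 CPM) summed to 68.8 to 72.7 CPM in AL, 63.8 to 65.2 CPM in DR and 67.7 to 78.7 CPM in KD mice, with 0 called in DR against AL and a median log2 fold change of -0.18. Of these 10 markers, 9 had a fold change below 0 in DR against AL. An unadjusted p under 0.05 by edgeR was reached by 4 of them, all lower, against 8.98% of all genes lower. In KD against DR all 10 had a fold change above 0. Of the 9 Purkinje cell markers 3 were called as lower in DR mice, among them Ryr1 (-0.36) and Car8 (-0.25). All 9 had a fold change below 0 in DR against AL, with a median of -0.18, where 49.0% of all genes were below 0. The sum of the 9 was 8631 ± 266, 7515 ± 524 and 8479 ± 102 CPM in AL, DR and KD mice (SD, n = 4 each). Of the 9 oligodendrocyte markers 1 was lower in DR mice, 8 had a fold change below 0 with a median of -0.18, and their sums overlapped, at 2675 ± 305 CPM in AL and 2444 ± 254 CPM in DR mice (SD, n = 4 each). Among 15 endothelial markers Tie1 was lower in DR mice (-0.46), with sums of 433.2 ± 8.51 and 420.2 ± 23.5 CPM (SD, n = 4 each). Pericyte and smooth muscle markers summed to 154.2 ± 7.27, 139.5 ± 3.58 and 144.2 ± 3.44 CPM (SD, n = 4 each) without a called gene. The sums of the meningeal fibroblast, granule cell, interneuron, choroid plexus and blood markers overlapped between AL and DR mice, with 0 called genes in DR against AL. Choroid plexus markers summed to 24.5 to 29.9 CPM in the DR mice with 5 of 9 genes below 1 CPM, and meningeal markers to 73.2 to 106 CPM with Fmod the most abundant. In KD against DR, 3 Bergmann glia and astrocyte markers were higher and 1 lower, 3 Purkinje cell, 2 oligodendrocyte, 2 endothelial, 1 microglia and 1 choroid plexus marker were higher, and of the granule cell markers 1 was higher and 1 lower. In none of these lists was a gene at 0 in all 12 mice. In the cell type lists that the study used, Col9a2 is listed for Bergmann glia, Col11a2 and Itgb8 for astrocytes, Itga4, Itgb2, Itgb3 and Itgb5 for microglia, and Col18a1, Col19a1, Col4a5 and Col5a1 for Purkinje cells. Of these, Itga4 (0.16), Itgb2 (-0.26), Itgb5 (0.07), Col19a1 (0.00), Col4a5 (-0.19) and Col5a1 (-0.19) were not called in DR against AL. The part of these cell types in the change of each chain was not tested.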

How the data were processed

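Cerebellar cortex RNA of 12 mice was sequenced after poly(A) selection. The authors trimmed reads (Trimmomatic 0.39), aligned them to GRCm38.p6 (STAR 2.7.0f) and deposited raw counts per GENCODE gene (featureCounts, Subread 1.6.4); whether counting used strand is not given in the sources used here. Symbols came from GENCODE M21 for 54723 of 54752 genes. For each comparison its 8 libraries alone entered a fit with edgeR 4.0.16 in R 4.3.3 (filterByExpr with minimum count 10 and minimum total 15, TMM, quasi-likelihood test without a covariate), with Benjamini-Hochberg adjustment over all genes tested and a threshold of 0.05. CPM were TMM-scaled over all 12 libraries, and 95% intervals are those of the fit. On simulated counts for DR against AL the test recovered 67% of 100 genes changed by 0.5 on the log2 scale, and 83.3% of 96 changed by 1. It also called 3 unchanged genes. Changes below 0.5, such as the -0.22 of Itgb8 and the -0.23 of Col18a1, were not simulated. Same-diet libraries differed beyond sampling noise in all 18 pairs. Numbers within a diet follow the order of deposition and were not used for pairing. The labels name no batch.

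Members with an adjusted p under 0.05 in any comparison and the most abundant chain of each family are given in every mouse, partners in a trimer or dimer more briefly, and called genes of the pathway lists by smallest p. Some genes of the lists are counted but not reported by name here. Members and lists were chosen with earlier results of these data known. Alternatives were library-size and DESeq2 (1.42.0) scaling, the DESeq2 and edgeR likelihood-ratio tests, no filter, a mean over 10 CPM, a joint fit and leaving out each library. Exact permutation tests compared library totals. Promoters are RefSeq's (250 bases before to 50 after the start).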

Additional observations from a re-analysis of the deposited data

Results flagged for a closer look

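In 15 of the genes given here mouse by mouse, but not in all of them, 45 groups of 4 mice were searched for a mouse far from its group. Dixon's test on the gap to the nearest mouse was used, which chance passes in about 1 group in 20, and 4 were found. Lamb1 was 72.6 CPM in KD mouse 3, while the other KD mice had 64.0 to 64.5 CPM. Col6a3 was 2.87 CPM in AL mouse 4, against 0.800 to 0.962 CPM in the other AL mice. Col5a3 was 18.2 CPM in DR mouse 2, below the 22.4 to 23.1 CPM of the other DR mice, and the only DR value inside the AL range. Col18a1 was 194 CPM in KD mouse 2, where the other KD mice had 166 to 170 CPM. Lamc1 is not among the 4, although DR mouse 1, at 22.2 CPM, lay below the 26.3 to 27.0 CPM of the other DR mice. The cause was not tested in any of them.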

How the results depend on the processing

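The 8 members called in DR against AL became 5 with library-size scaling, 12 with the edgeR likelihood-ratio test, 18 without a filter and between 2 and 5 when 1 library was left out (4, 2, 5 and 5 without AL mouse 1, 2, 3 and 4, and 5, 5, 2 and 3 without DR mouse 1, 2, 3 and 4). Over all genes the 583 calls became 565, 998, 1258 of 35284 and between 235 and 712. Col9a2 and Itgb3 were called in each of the 8 fits with 1 library left out. The 7 members called in KD against DR became 12 without a filter, 3 among genes over 10 CPM, and between 2 and 6 when 1 library was left out (4, 3, 4 and 6 without DR mouse 1, 2, 3 and 4, and 3, 4, 2 and 4 without KD mouse 1, 2, 3 and 4); Col9a2 and Col5a3 were called in each. Over all genes the 942 calls became 1503 of 35453, 779 of 10202 and between 467 and 946. Without a filter, Col27a1, Col2a1, Col3a1, Col5a1 and Col7a1 were also called in DR against AL, and Col2a1 and Col6a3 in KD against DR. Such a call need not mean a larger change. In DR against AL, Col27a1 was at -0.20 with and without the filter, while its adjusted p by edgeR went from 0.362 to 0.0139. For Col11a2 the fold change was -0.38 with and -0.39 without the filter, and the adjusted p went from 0.0393 to 8.92e-05. In KD against AL, where 0 were called, Col6a3 alone was called by the likelihood-ratio test and without a filter (1 member each, where 18 and 118 of all genes were called). Fold changes of KD against AL close to 0 changed sign in 3 genes: with 1 library left out, Col11a2 ranged from -0.10 to 0.0401 (above 0 without AL mouse 3, AL mouse 4 or KD mouse 4), Col27a1 from -0.0612 to 0.19 (below 0 without AL mouse 1 or KD mouse 2) and Col5a3 from -0.18 to 0.0030 (above 0 without AL mouse 1). The laminin median of KD against DR moved from 0.07 to 0.05 with library-size scaling. Single values under an alternative were kept only for the members called in at least 1 comparison. Among these 444 values, 361 kept their direction and their side of the threshold, 76 no longer passed it, 1 newly passed it and 6 that never passed it changed sign. Members called under an alternative only, such as Col16a1 and Lamc1, are not among them. No paired analysis was run because the labels give no replicate numbers shared across diets. Sample titles run on across the diets, and no fit was blocked on that order. The cause of these differences was not tested. Chains under 3 reads in a library (0.0735 to 0.0946 CPM) could not be measured.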
